A study of Mus musculus with 28 samples.

Results

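The 75 genes described here encode proteins of the mouse cytosolic ribosome. They are the symbols named Rpl, Rps or Rplp plus a number (and at most a trailing a, x or y) with a mean FPKM (fragments per kilobase of transcript and per 1e6 mapped fragments) of 10 or more over 5 RNA libraries. The genes were thus chosen by name and selected on their mean FPKM, which includes the control and the knockdown clones. All 75 symbols with such a name passed that level, out of 23951 symbols in the tables, and 46 belong to the large and 29 to the small ribosomal subunit. High expression was therefore a condition of the choice, and the levels below are descriptions. The lowest mean, 50.3 FPKM for Rps15a, lay well above the threshold, and no symbol fell below it.

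The cells were NIH/3T3 Tet-On 3G, a mouse fibroblast line, immortalised from embryos, with a transcriptional activator that doxycycline switches on. RNA with poly-A tails was sequenced from 2 control clones, labelled wild type and transduced with GFP-Luciferase and OFP-Luciferase constructs, and from 3 H3.3 knockdown clones transduced with OFP-H3.3A and GFP-H3.3B constructs. The treatment text attached to the RNA samples speaks of fibroblasts with FLAG/HA-tagged H3.3 grown with doxycycline, for control and knockdown alike. Each clone is 1 library, so a clone's own history and the knockdown cannot be told apart within that library. Chromatin immunoprecipitation (ChIP) of 6 subunits of NuRD, a chromatin remodelling and histone deacetylase complex, and of H3K4me3, H3K27ac and H3K9ac had 1 library each from cells without a construct. HA-H3.3 ChIP had 2 replicates from cells with a tagged H3.3 construct, given aphidicolin and doxycycline. MTA1 and RBBP4 ChIP had 1 control and 1 knockdown library each, from cells with the constructs of the RNA clones. A sequential ChIP, with tagged H3.3 first and RBBP4 second, had 1 library.

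The cytosolic ribosome joins a small subunit, which reads the mRNA, to a large subunit, which forms peptide bonds. Its proteins are needed in equal numbers, apart from the P-stalk proteins RPLP1 and RPLP2, which are present in several copies and recruit translation factors. Their mRNAs are short and abundant. Most begin with a cytosine followed by pyrimidines, the terminal oligopyrimidine or TOP start, through which mTOR signalling and LARP1 control their translation. H3.3, encoded by H3f3a and H3f3b, is a histone H3 variant that is deposited outside of DNA replication, typically at active genes.

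RefSeq promoter sequence (GRCm38.p6, 250 bases before to 50 after each listed start) was matched by symbol for 55 of the 75 genes, with 65 listed starts. A TOP start, searched on the given strand as C followed by at least 5 pyrimidines within 10 bases of the listed start, was found at 31 of 55 genes (56.4%). It was found at 1156 of 5033 other genes with mean FPKM of 10 or more (23.0%) and at 19.2% of all 32851 windows. The starts of 8 genes that carry it are shown because this element is shared across both subunits. Each line runs from 10 bases before to 20 bases from the listed start, 5′ to 3′ on the gene's strand. Capitals mark the match, which starts at the qualifying C nearest to the listed start and ends with the run, so pyrimidines just before it are in lower case.
Rplp2 (chr7:141447641-141447670, plus strand): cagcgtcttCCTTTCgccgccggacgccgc
Rpl28 (chr7:4792955-4792984, plus strand): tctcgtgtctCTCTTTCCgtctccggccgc
Rpl34 (chr3:130730318-130730347, minus strand): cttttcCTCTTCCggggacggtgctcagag
Rpl27a (chr7:109519185-109519214, plus strand): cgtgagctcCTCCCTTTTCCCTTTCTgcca
Rps6 (chr4:86857348-86857377, minus strand): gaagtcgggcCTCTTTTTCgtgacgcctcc
Rps26 (chr10:128626487-128626516, minus strand): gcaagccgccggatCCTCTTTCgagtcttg
Rps27 (chr3:90213629-90213658, minus strand): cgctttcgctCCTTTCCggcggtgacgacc
Rps15a (chr7:118116128-118116157, minus strand): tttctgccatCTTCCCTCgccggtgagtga

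A second element, CTCGCGA on either strand, was present in the windows of 13 of 55 ribosomal protein genes (23.6%), against 5.29% of other expressed genes and 1.93% of all windows. The start of Rps28, the gene of highest mean FPKM, is shown because the element overlaps the listed start, and those of Rps19 and Rps15 because it does so there too. Capitals mark CTCGCGA or its reverse complement.
Rps28 (chr17:33824543-33824572, minus strand): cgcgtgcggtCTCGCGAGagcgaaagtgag
Rps19 (chr7:24884582-24884611, plus strand): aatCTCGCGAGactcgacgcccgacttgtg
Rps15 (chr10:80292421-80292450, plus strand): cagagCTCGCGAtaactgcgcaagcgcagc
In Rpl26 and Rps6 the same element lay upstream, shown here over the 80 bases before the listed start.
Rpl26 (chr11:68901486-68901565, plus strand): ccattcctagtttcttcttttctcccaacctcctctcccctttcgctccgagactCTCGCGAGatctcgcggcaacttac
Rps6 (chr4:86857368-86857447, minus strand): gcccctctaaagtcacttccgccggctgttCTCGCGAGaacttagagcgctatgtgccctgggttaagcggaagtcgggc
The ETS core CCGGAAG, on either strand, was found at 22 of 55 genes (40.0%), against 22.8% of other expressed genes and 8.86% of all windows. In these shares a gene counts if any of its windows matches, while the share of all windows counts each window. AAGATGG, a core of YY1 sites, was in 16.4% against 9.68% and 6.34%. The GC box GGGCGG was found at 60.0% of the ribosomal protein genes and at 74.3% of other expressed genes, and CCAAT at 30.9% against 44.0%. TATAAA (10.9% against 8.19%), the NRF1 core GCATGCG (9.09% against 8.42%) and the E-box CACGTG (10.9% against 12.6%) differed less. Median GC content of the windows was 58.0% for ribosomal protein genes, 62.0% for other expressed genes and 52.7% for all windows. These are matches of letters and not measured binding.

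Ribosomal protein genes took 43 of the 100 highest places by mean FPKM, and 74 of the 75 were among the highest 1000. Their mean FPKM, a level per length, had a median of 1133 (1100 in the large and 1347 in the small subunit) and spanned 80.5-fold. At the top of the small subunit stood Rps28, with 2544 and 2378 FPKM in control clones 1 and 2 and 6540, 5138 and 3657 in knockdown clones 1 to 3. Every knockdown clone was above both controls. Rps26 followed with 2258 and 1959 in the controls and 4926, 3525 and 3233 in the knockdown clones, again without overlap. For Rps2 the order was the opposite, with 3592 and 3662 in the controls and 2367, 3014 and 2840 in the knockdown clones, all of which lay below.

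In the large subunit Rpl41, the shortest of the ribosomal proteins, was highest, with 2820 and 2389 FPKM in the controls and 4338, 4406 and 4070 in the knockdown clones. Rplp1 of the P-stalk followed with 3169 and 2689 in the controls and 3692, 3940 and 4233 in the knockdown clones. Rpl23a, which sits at the exit of the peptide tunnel, had 2398 and 2441 in the controls and 3826, 3427 and 3019 in the knockdown clones. In each of these 3 genes every knockdown clone was above both controls.

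**Figure D1:**
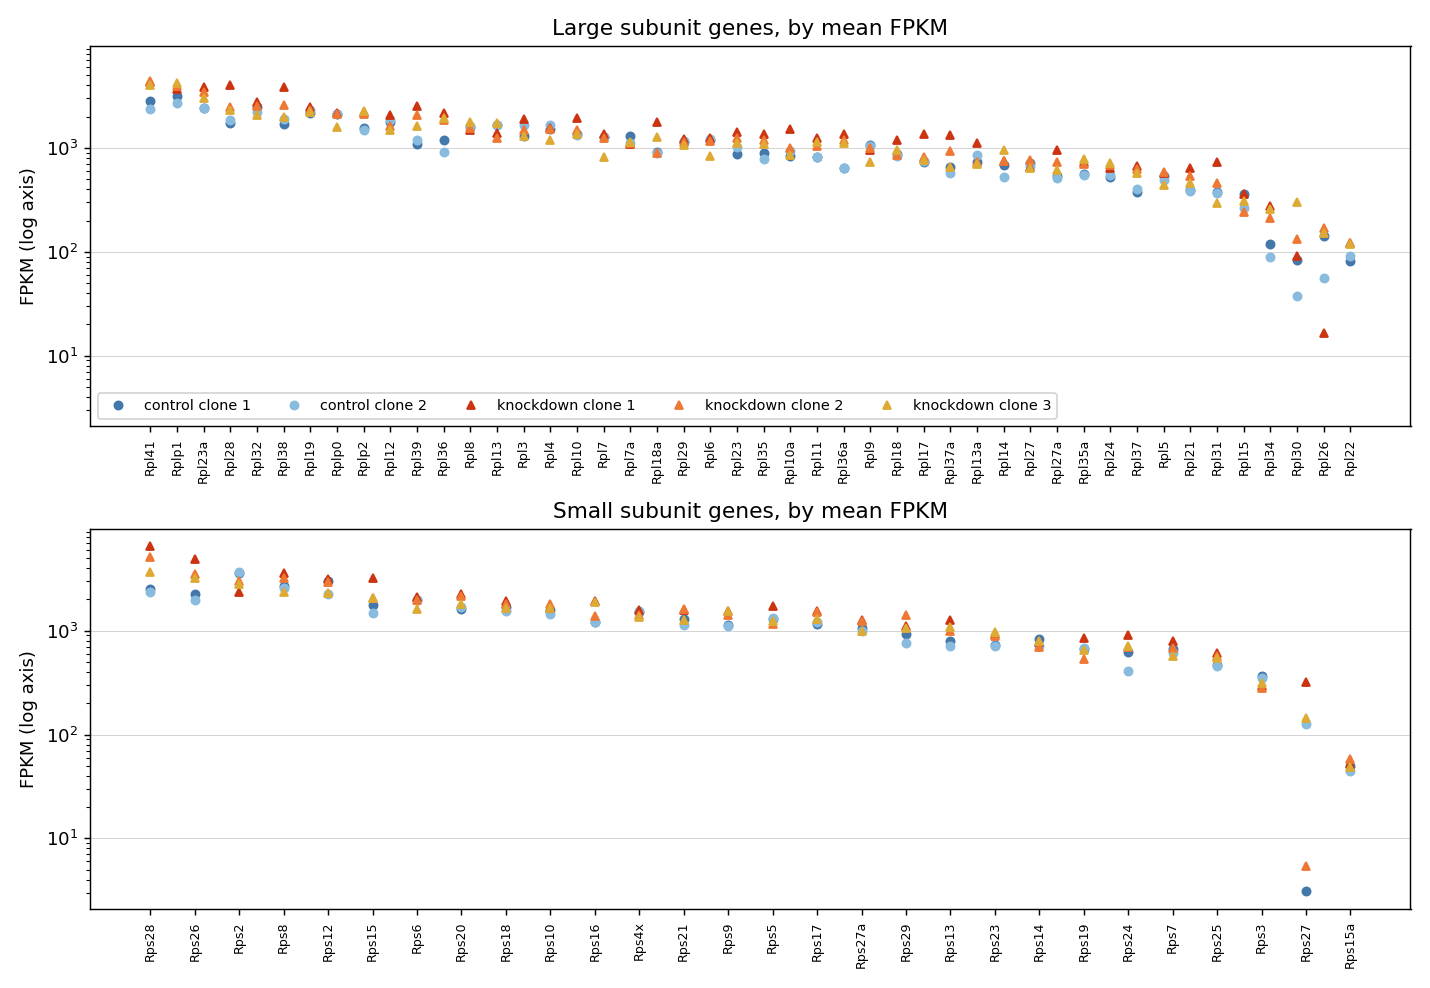
FPKM of ribosomal protein genes (vertical log axis, 1 small subunit gene left out) in the 2 control clones (circles) and 3 knockdown clones (triangles), with genes of each subunit ordered by mean FPKM. Most points of a gene lie close together, while Rps27, Rpl26 and Rpl30 spread over 8.00-fold or more between libraries.

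At the low end, Rps15a and Rpl22 varied little between clones, and Rpl26 and Rps27 varied widely. Rps15a, a small subunit protein, had 49.3 and 44.2 FPKM in the controls and 51.5, 58.2 and 48.5 in the knockdown clones, which overlap. Rpl22 had 81.1 and 90.9 in the controls and 121.9, 121.6 and 118.9 in the knockdown clones, without overlap. Rpl26 had 142.8 and 55.4 in the controls and 16.5, 169.2 and 152.4 in the knockdown clones, so that knockdown clone 1 was lowest and the groups overlapped. Rps27 had 3.09 and 125.4 in the controls and 322.2, 5.39 and 143.2 in the knockdown clones, a spread of 104.1-fold with no order by group.

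Ribosomal protein genes have many processed copies in the genome, and reads can be shared with them. Rps27rt, a near copy of Rps27, had 961.7 and 950.4 FPKM in the controls and 1567, 1317 and 870.3 in the knockdown clones. Summed over Rps27 and Rps27rt the values were 964.8 and 1076 in the controls and 1889, 1322 and 1013 in the knockdown clones, so the sum varied far less than Rps27 alone. For Rpl34, with 119.1 and 88.5 FPKM in the controls and 275.2, 209.3 and 257.9 in the knockdown clones, the copy Rpl34-ps1 was higher than the gene in every library. Adding it lowered the log2 difference between knockdown and control from 1.25 for Rpl34 alone to 0.31 for the sum. Rps15a, the lowest of the 75, has the copies Rps15a-ps4 and Rps15a-ps6, each higher than the gene in every library. Its log2 difference of 0.17 became 0.13 with Rps15a-ps4 added and 0.12 with Rps15a-ps6 added. The deposited confidence intervals behaved as plain counting error for 59 of the 75 genes, in that fragments per FPKM, estimated from the interval, differed between libraries by less than 5%. The other 16 genes, among them Rps27, Rpl34, Rpl30 and Rpl26, are uncertain in this respect.

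Both H3.3 genes were lower in every knockdown clone than in both controls, and most so in clone 3. H3f3a had 128.3 and 143.5 FPKM in the controls and 71.8, 35.6 and 5.05 in knockdown clones 1 to 3. H3f3b had 249.4 and 237.1 in the controls and 144.4, 104.3 and 51.7 in the knockdown clones. Libraries held an estimated 18.2 to 26.5 M fragments, with a median of 15606 over ribosomal protein genes and libraries. In bulk RNA a different share of cells and a different level per cell cannot be told apart. Of 10 fibroblast markers 8 had a mean FPKM of at least 1, with Fap at 0 in all libraries. S100a4 and Vim had the highest FPKM of them. S100a4 had 1541 and 1672 in the controls and 2471, 3337 and 3646 after knockdown, a log2 difference of 0.95 with an adjusted p of 0.44 (limma), and Vim had a log2 difference of -0.02. The summed FPKM of the fibroblast markers ran from 6308 to 6741 in controls and from 8035 to 9451 in knockdown clones. The markers did not move together: 5 of the 8 had a log2 difference above 0 and 3 below, among them Fn1 (-0.56) and Thy1 (-0.23). Of 12 markers of other cell types 3 reached that level (summed FPKM 12.1 to 16.9 in controls and 6.89 to 23.0 in knockdown clones), with Epcam and Myod1 at 0 throughout. Within that sum Cd14 had 5.95 and 7.52 FPKM in the controls and 5.91, 8.37 and 14.8 in the knockdown clones. Cdh5, an endothelial cadherin, had 3.78 and 6.89 in the controls and 0.19, 0.17 and 0.50 in the knockdown clones, all below (log2 difference -2.27 ± 0.31, limma adjusted p = 0.28). Krt14 had 1.64 and 1.28 in the controls and 0.17, 1.17 and 5.81 in the knockdown clones. The part of these markers in the results was not tested.

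Knockdown was compared with control to ask how ribosomal protein mRNA differed after H3.3 depletion. No single gene of the 75 passed the test, while as a group they stood higher in the knockdown clones than most genes. With limma on log2(FPKM + 1) and Benjamini-Hochberg adjustment, 0 of 75 genes had an adjusted p under 0.05, against 4 of 11728 genes tested (0.0341%). At an unadjusted p under 0.05, 14 of 75 were higher (18.7%, against 3.5% of all genes tested) and 0 were lower (against 6.31%). The log2 difference was above 0 for 56 of 75 genes (74.7%, against 40.1%). Every knockdown clone exceeded both controls for 36 genes (48.0%, against 11.4%) and lay below both for 3 genes, Rps2, Rps3 and Rpl9 (4.00%, against 21.2%). Groups of 2 and 3 clones limit the precision of these comparisons.

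The median log2 difference, knockdown minus control, was 0.30 over the 75 genes and -0.10 over all genes tested. It was 0.34 in the large and 0.23 in the small subunit, so the subunits differed by 0.11, less than the width of either subunit's quartile range (-0.01 to 0.52 and 0.09 to 0.50). After scaling each library to the median of its expressed genes, which moved the median of all genes tested from -0.10 to 0.03, the median of the 75 genes was 0.45. Then 67 of 75 genes were above 0 (89.3%, against 53.1% of all genes). Quantile normalization, which forces the same distribution on all libraries, gave a median of 0.10 over the 75 genes and of -0.006 over all genes tested. With it 43 of 75 genes were above 0, a count without the share of all genes beside it. The subunits then differed by 0.01.

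Among single genes the largest positive differences on the log2(FPKM + 1) scale were those of Rps27, Rpl30, Rpl34 and Rps28, and 3 of these 4 are in the uncertain group. Rps28 had a log2 difference of 1.02 ± 0.28 (SE, n = 2 and 3, limma adjusted p = 0.45). Rpl34 had the smallest adjusted p of the 75, 0.40, with a difference of 1.25 ± 0.24. Rpl30 had 84.3 and 37.7 FPKM in the controls and 91.8, 132.5 and 301.9 in the knockdown clones, a log2 difference of 1.44 ± 0.60. Among genes with steady intervals, and picked after its values were seen, Rpl36a had 642.2 and 633.9 FPKM in the controls and 1347, 1202 and 1107 in the knockdown clones, a difference of 0.93 ± 0.18 (adjusted p = 0.41). Rpl36 had 1189 and 922.8 in the controls and 2185, 1859 and 1944 in the knockdown clones, and Rpl39 had 1085 and 1181 against 2515, 2090 and 1621. All 3 are without overlap between groups. The difference of Rps27 was 1.55 ± 2.16, within its error, and without control clone 1 it was -0.92.

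The largest negative differences were those of Rps2, Rps3, Rpl9 and Rpl26. Rps2, a small subunit protein near the mRNA entry channel, had a log2 difference of -0.41 ± 0.19 (limma adjusted p = 0.52). Rps3, which lines the mRNA entry and also has a role in DNA repair, had 368.4 and 349.0 FPKM in the controls and 290.4, 278.8 and 313.8 in the knockdown clones, all below the controls. Rpl9 had 1056 and 1037 in the controls and 962, 989 and 730.3 in the knockdown clones. Rpl26 had a difference of -0.22 ± 1.11, which its spread between clones covers.

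The P-stalk genes differed among themselves. Rplp2, with 1559 and 1503 FPKM in the controls and 2207, 2120 and 2278 in the knockdown clones, had a log2 difference of 0.52 ± 0.16 (limma adjusted p = 0.47). Rplp1 had a difference of 0.44 ± 0.18 (adjusted p = 0.51). Rplp0, which anchors both to the large subunit, had 2110 and 2137 in the controls and 2166, 2109 and 1596 in the knockdown clones, a difference of -0.13 ± 0.21 that became 0.01 after median scaling. Quantile normalization turned Rplp1 to -0.10.

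**Figure D2:**
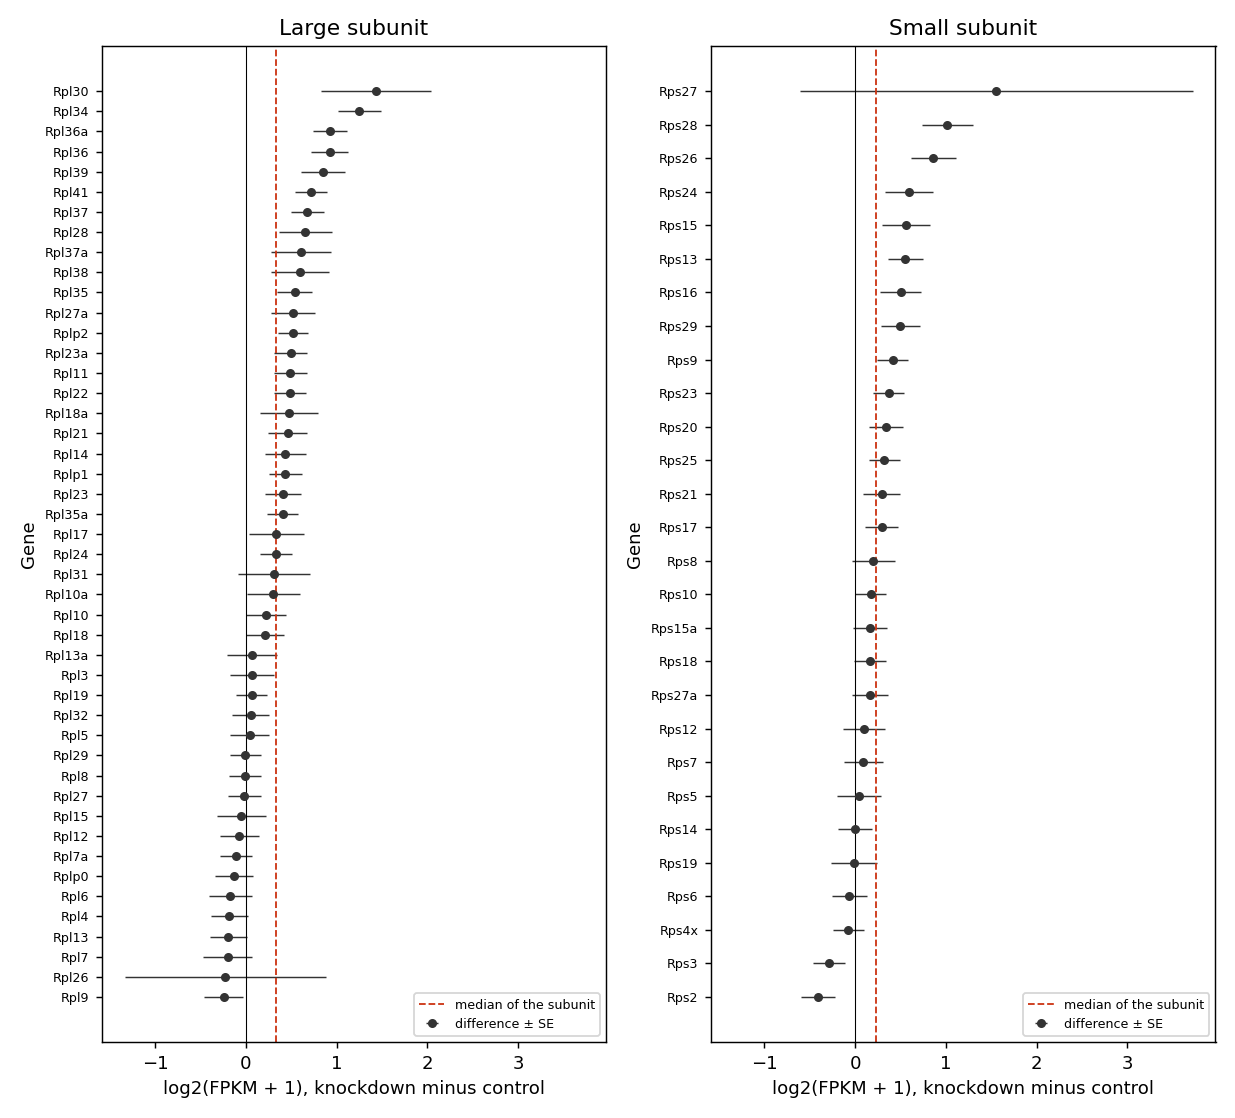
Difference in log2(FPKM + 1), knockdown minus control (horizontal axis), with its standard error from limma, for genes of the large (left) and small (right) subunit, with 1 small subunit gene left out. Points right of 0 are higher in knockdown clones; dashed lines mark the subunit medians over all genes, 0.34 and 0.23, and the bars of Rps27 and Rpl26 reach across 0.

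The 3 knockdown clones differed among themselves. The median log2 difference from the control mean was 0.40 in knockdown clone 1, 0.29 in clone 2 and 0.13 in clone 3, against 0.02 and -0.02 in the controls. The 2 controls make up that mean, so here and below their values mirror each other by construction and are not separate baseline values. Clone 1 had the highest value of the 3 for 53 of 75 genes, and clone 3 the lowest for 47. Ribosomal protein genes made up 15.5% and 16.2% of summed FPKM in the controls (mean 15.9% ± 0.48, SD, n = 2) and 21.2%, 18.3% and 16.3% in the knockdown clones (18.6% ± 2.46, SD, n = 3). The lowest knockdown share lay just above the higher control. Without clone 1 the mean difference in share was 1.46 percentage points in place of 2.76, and without clone 3 it was 3.91. With short RNA genes (symbols Mir, Snord or Snora) left out of the sum, the shares were 18.4% and 18.2% in the controls. They were then 24.7%, 21.2% and 20.2% in knockdown clones 1 to 3, all above both controls. Among the 3 knockdown clones, the clone with the least H3f3a and H3f3b had the smallest difference in ribosomal protein genes, and the clone with the most had the largest. With 1 library per clone, this order cannot be told apart from other differences between clones and was not tested.

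**Figure D3:**
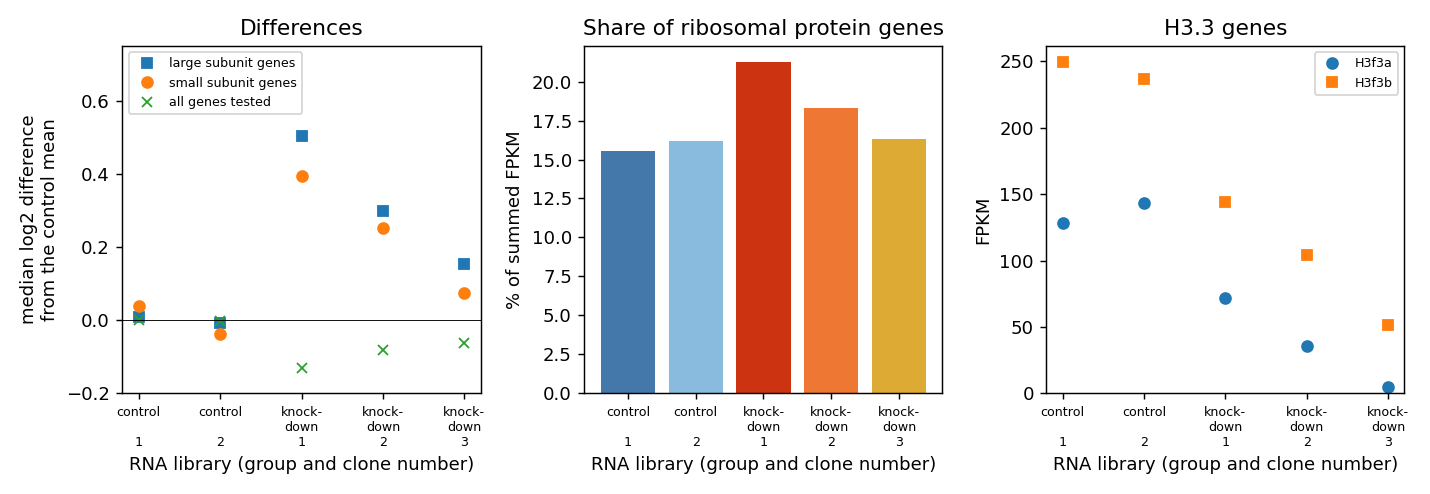
Per RNA library, the median log2 difference from the control mean for large subunit genes, small subunit genes and all genes tested (left), the share of ribosomal protein genes in summed FPKM (middle), and the FPKM of H3f3a and H3f3b (right). Knockdown clone 1 stands highest in the left and middle panels at 21.2% of summed FPKM, while H3.3 transcripts were lowest in clone 3.

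Short transcripts had the higher differences, in ribosomal protein genes and in others. Relative length was taken as estimated fragments per FPKM, in percent of the median gene, over genes whose intervals behaved as counting error. It ran from 5.71% (Rps28) to 226.3% (Rps15a) over 59 ribosomal protein genes, with a median of 23.1%. This estimate was not checked against annotated transcript lengths and may be off for single genes such as Rps15a. Spearman's rho between relative length and log2 difference was -0.60 over these 59 genes and -0.14 over 4099 other genes with mean FPKM of 10 or more. Both are correlations across genes of the same libraries, which are no independent replicates. Of 26 ribosomal protein genes under 20% relative length 24 had a log2 difference above 0, against 17 of 33 longer ones.

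Other short genes were also higher in the knockdown clones, and the medians of ribosomal protein genes lay above those of other genes in all length classes but those from 20% to 25% and from 25% to 35%. Under 10% of the median gene, 20 other genes had a median log2 difference of 0.55 and 5 ribosomal protein genes one of 0.85. From 10% to 15% the medians were 0.38 (56 other genes) and 0.52 (11), and from 15% to 20% they were 0.30 (73) and 0.43 (10). From 20% to 25% they were 0.16 (76) and 0.04 (9), and from 25% to 35% both were 0.09 (207 and 11). In the longer classes other genes were below 0, at -0.07 from 35% to 50% (329), -0.18 from 50% to 100% (1260) and -0.17 above 100% (2078). Ribosomal protein genes there had medians of 0.12 (4 genes), -0.06 (8) and 0.17 (Rps15a alone). With the median of other genes of the same length class subtracted, the median over the 59 genes was 0.07, in place of 0.29, and 35 of 59 lay above 0. Beyond this subtraction, the part of transcript length in the difference was not tested.

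That remainder was not alike in the clones. After the same subtraction the median was 0.31 in knockdown clone 1, with 47 of 59 genes above their class. It was -0.03 in clone 2 (27 of 59) and -0.05 in clone 3 (24 of 59). The controls, mirror images by construction, stood at -0.002 and 0.002. Other genes under 10% relative length had their highest median in clone 2 (0.69), with 0.46 in clone 1 and 0.36 in clone 3. Ribosomal protein genes in clone 1 thus lay mostly above other genes of their length class, and in clones 2 and 3 about as many lay above as below.

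**Figure D4:**
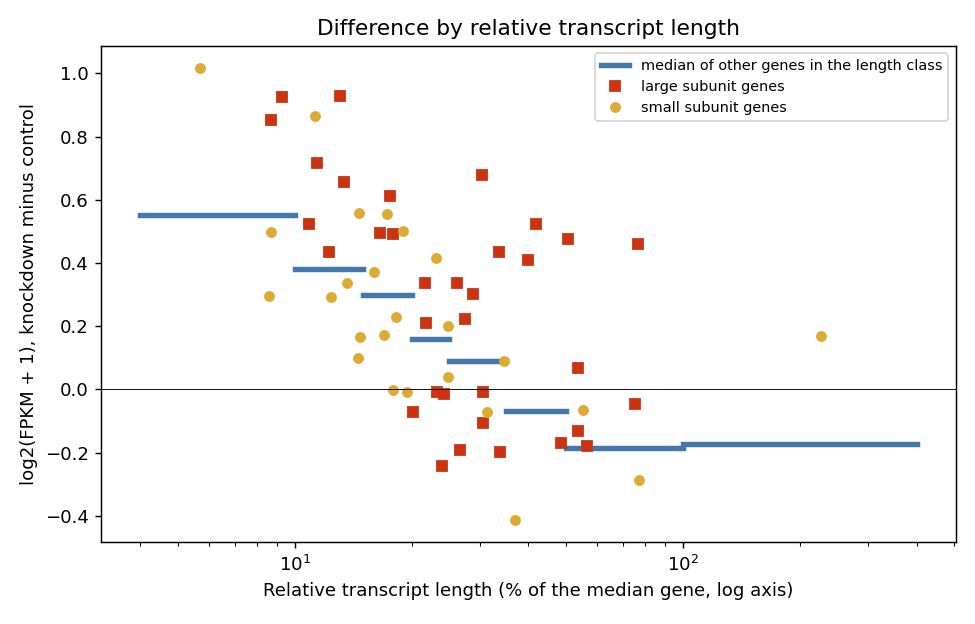
Difference in log2(FPKM + 1), knockdown minus control (vertical axis), against relative transcript length (log axis) for 34 large (squares) and 25 small subunit genes (circles). Blue bars are medians of other genes by length class, from 0.55 in the shortest class to -0.17 in the longest, and the ribosomal protein genes scatter around them.

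The promoter elements were set beside the log2 differences in RNA, with no test. The median log2 difference was 0.30 for the 31 genes with a TOP start and 0.33 for the 24 matched genes without one. This split depends on the listed start, since only bases close to it were searched. Rps25 and Rpl4, for example, count as without one, yet have a pyrimidine run that begins just upstream of the searched bases. Whether a TOP start goes with the RNA difference therefore cannot be read from these medians and was not tested. The median log2 difference was 0.30 for the 13 genes with CTCGCGA and 0.32 for the 42 without. With CCGGAAG it was 0.32 (22 genes) and without it 0.30 (33 genes). With the GC box it was 0.29 (33 genes) and without it 0.37 (22 genes).

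Other genes of protein synthesis did not share the direction of the 75 throughout, and none of them passed the test. Of all genes tested 59.9% were below 0, with a median of -0.10. Ribosome genes with other names had a median of 0.31 with 7 of 11 above 0. They include Gnb2l1, the scaffold protein RACK1 (log2 difference -0.34 ± 0.21, limma adjusted p = 0.57), and Rplp2-ps1 (0.52), a copy of Rplp2. Translation factors and some other genes known for TOP mRNAs, such as Hnrnpa1 (0.69), had a median of 0.12 with 11 of 16 above 0. They were led in level by Eef1a1 (0.14) and Tpt1 (-0.28). Translation initiation factors had a median of -0.29 with 16 of 21 below 0, led by Eif5a (-0.38) and Eif4a1 (-0.40). Ribosome biogenesis genes, which make and process ribosomal RNA, had a median of -0.38 with 32 of 40 below 0. Npm1, a nucleolar chaperone and the first of them by FPKM, had a log2 difference of 0.37, and Fbl, the rRNA methyltransferase fibrillarin and the second by FPKM, one of -0.21. Genes that control growth through mTOR or MYC had a median of -0.23 with 13 of 17 below 0, with Eif4ebp1, a repressor of translation, at -1.15 and Akt1 at -0.69. Translation factors and biogenesis genes are longer than most ribosomal protein mRNAs as a rule, and these lists were not compared by length.

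By clone, the ribosome biogenesis list had a median log2 difference from the control mean of -0.89 in knockdown clone 1, -0.18 in clone 2 and 0.00 in clone 3. The controls stood at 0.29 and -0.29, mirror images by construction, so the 2 controls lay far apart. Initiation factors had -0.56, -0.13 and -0.16 in the knockdown clones and 0.18 and -0.18 in the controls. Knockdown clone 1, highest for ribosomal protein genes, was lowest for both lists. Eif4ebp1 had 179.8 and 178.2 FPKM in the controls and 40.1, 86.2 and 146.8 in the knockdown clones, with clone 1 lowest as well.

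Ribosomal protein introns host small nucleolar RNAs (snoRNAs), which guide modification of ribosomal RNA and lack poly-A tails. Of 29 snoRNA genes inside 20 ribosomal protein loci, 3 were listed at 0 in every library and 7 had more than 20 estimated fragments in any library. Snord16a in Rpl4 had 3013 and 2126 FPKM in the controls and 884.4, 1578 and 5406 in the knockdown clones, on 29.0 to 175.2 estimated fragments, with no order by group. Snora64 in Rps2 had 204.6 and 234.5 in the controls and 79.9, 117.1 and 108.1 in the knockdown clones, all below, on 8.00 to 31.9 fragments. Snora65 in Rpl12 had 423.1 and 410.2 in the controls and 173.4, 299.2 and 417.5 in the knockdown clones, which overlap. Since a single fragment is worth many FPKM in so short a gene, the snoRNA values are of low precision.

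Chromatin was examined within 2 kb of either end of each locus, because the tables give no strand. H3K4me3 and H3K9ac, marks of active promoters, had a peak at 75 of 75 genes each, against 94.8% and 92.6% of 6783 other genes with mean FPKM of 10 or more. H3K27ac, a mark of active promoters and enhancers, had one at 71 of 75 (94.7%, against 74.0%). The 4 genes without one were Rpl10, Rpl15, Rpl36a and Rps9. The strongest H3K9ac peak had a median score, as the authors gave it, of 1215 at ribosomal protein genes and 672.0 at other genes, with a median width of 2501 and 1966 bp. The same score was 151.3 and 129.6 for H3K27ac. For H3K4me3 it was exactly 3100 at both sets of genes, with a median of 321.9 over its whole list. Whether 3100 is a ceiling of that score was not checked, so the tie does not show equal strength. All of these are 1 library each, with no replicate check, and ribosomal protein genes are more highly expressed than most of the genes they are set beside.

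The deposited levels, read as log2(RPKM + 1), were taken from the highest region at each gene, with at least 1 region at all 75. A pair of the 75 genes shares a region. HA-H3.3 had a median level of 2.34 in replicate 1 and 2.84 in replicate 2, against 2.28 and 2.38 at other expressed genes. The difference was thus 0.06 in one replicate and 0.46 in the other. With the mean over a gene's regions in place of the highest, ribosomal protein genes had 1.69 and other genes 1.85 in replicate 1, and 2.14 and 2.09 in replicate 2. Spearman's rho between the replicates was 0.53 over the 75 genes. In replicate 1 the highest was Rpl27 (3.86) and the lowest Rps23 (0.38), and in replicate 2 the highest was Rps10 (3.86). An HA-H3.3 peak covered part of a region at 69 genes (92.0%, against 80.5%) in replicate 1 and at all 75 (100%, against 87.6%) in replicate 2.

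NuRD subunits were at levels close to those of other expressed genes, and the direction depended on how a gene's regions were summarised. Median levels at ribosomal protein genes and at other genes were 1.57 and 1.41 for CHD4, the remodelling ATPase, 1.89 and 1.73 for HDAC1, and 2.03 and 2.02 for HDAC2. For MBD2/3 they were 1.55 and 1.40, for MTA1 1.44 and 1.37, and for the histone chaperone RBBP4 2.28 and 2.28. These differences, up to 0.16, are smaller than the quartile ranges of either set of genes. With the mean over regions, HDAC1, HDAC2, MBD2/3, MTA1 and RBBP4 were lower at ribosomal protein genes, by up to 0.24 (RBBP4, 1.49 and 1.73), and CHD4 was at 1.17 and 1.15. The median gene had 14 to 28 reads in its highest region in the subunit libraries, so single genes are of low precision. Rps28 had the highest level of CHD4 (2.42) and of MBD2/3 (2.75) among the 75.

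Peaks of the subunits in unmodified cells covered a region at 66 genes for RBBP4 (88%, against 85.2%), 37 for HDAC2 (49.3%, against 58.4%) and 34 for HDAC1 (45.3%, against 36.5%). They did so at 17 for MBD2/3 (22.7%, against 15.7%), 15 for MTA1 (20.0%, against 15.3%) and 11 for CHD4 (14.7%, against 13.1%). All 6 subunits had a peak at Rpl23a alone (1.33%, against 1.47% of other genes), and none of them did at 5 genes (6.67%, against 11.4%), Rplp1, Rps26, Rps20, Rpl10 and Rpl35a. These names follow from the counts and were picked after their values were seen.

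H3K4me3 had a median level of 4.06 at ribosomal protein genes and 4.22 at other genes, H3K9ac 2.55 and 2.35, and H3K27ac 1.67 and 1.62. With the mean over regions H3K9ac (1.59 and 1.67) and H3K27ac (1.18 and 1.27) were lower at ribosomal protein genes. Large and small subunit genes had medians of 4.09 and 4.03 for H3K4me3 and of 2.48 and 2.56 for H3K9ac. Across the 75 genes, Spearman's rho between a level and the log2 difference in RNA ran from -0.31 (HA-H3.3 replicate 2) to 0.07 (HA-H3.3 replicate 1), so the replicates of the same antibody gave values of opposite sign. Genes share the library in each of these correlations.

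**Figure D5:**
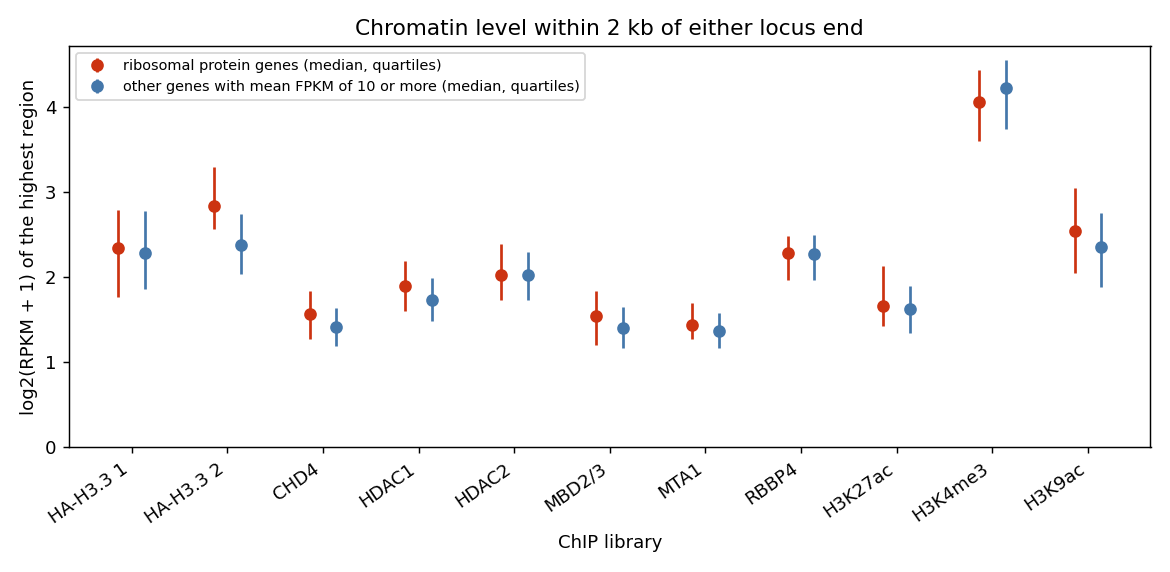
Level of the highest region within 2 kb of either locus end, as log2(RPKM + 1) (vertical axis), in each ChIP library, with median (point) and quartiles (bar) for 75 ribosomal protein genes and for other expressed genes. The bars overlap in every library, and the medians lie farthest apart in HA-H3.3 replicate 2, at 2.84 and 2.38.

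In the lists of control and knockdown cells, peaks at ribosomal protein genes were few. The MTA1 lists held 1703 peaks in control and 904 in knockdown cells, and the RBBP4 lists 3561 and 2919. In unmodified cells RBBP4 peaks covered a region at 88% of these genes, so few peaks here do not show that RBBP4 was absent. MTA1 had a peak at 0 of 75 genes in control cells (against 3.64% of other expressed genes) and at 1 of 75 in knockdown cells (1.33%, against 4.19%). That gene was Rpl21, with a peak of 870 bp overlapping the locus (mm9 chr5:147644203-147645072) and a score of 54.5. RBBP4 had a peak at 3 of 75 in control cells (4.00%, against 15.9%) and at 4 of 75 in knockdown cells (5.33%, against 17.2%). With 1 library per condition and unknown depth there is no test of control against knockdown.

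Rpl7 and Rpl4 had an RBBP4 peak in both lists. At Rpl7 the control peaks scored 66.9 and 54.7, and the knockdown peak scored 99.7 and lay 1310 bases outside the locus (mm9 chr1:16095825-16096013). At Rpl4 the control peak scored 55.6, and the knockdown list held 3 peaks with scores of 54.9, 57.6 and 101.0, the last of them overlapping the locus (mm9 chr9:64026069-64026281). Rpl28 had a peak in the control list and none in the knockdown list, with a score of 50.9. Rps26 had 2 peaks (scores 61.1 and 83.2) and Rps20 had 1 (score 74.0) in knockdown cells, where the control list has none. The list of the sequential ChIP, tagged H3.3 first and RBBP4 second, held 6 peaks and none near a ribosomal protein gene. Only 0.0885% of other expressed genes had one, so a count of 0 of 75 tells nothing about ribosomal protein genes.

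In FPKM, Rpl4 had 1537 and 1677 in the controls and 1568, 1531 and 1187 in the knockdown clones, and Rpl7 had 1278 and 1270 in the controls and 1349, 1244 and 814.9 in the knockdown clones. Both groups overlap. Rps20 had 1604 and 1671 in the controls and 2259, 2178 and 1802 in the knockdown clones, without overlap. Rpl21 had 396.0 and 387.8 in the controls and 645.9, 532.3 and 456.7 in the knockdown clones, and Rpl28 had 1734 and 1870 against 4017, 2489 and 2293, both without overlap. None passed the limma test, with an adjusted p of 0.52 for Rpl21 and for Rpl28 and of 0.55 for Rps20.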

How the data were processed

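Values were used as deposited. Per the file headers, the RNA tables hold FPKM per gene with interval bounds, in the form Cufflinks writes. The tools, per the submitters' processing notes, were MACS2, TopHat, Cufflinks, Bowtie, Cuffdiff and bedtools, on build mm9; their versions and roles are not given there. The deposited level table is headed RPKM, but it holds log2(RPKM + 1): with that reading, 100% of values under 100 reads were whole reads within 0.05. A second deposited table gives the fraction of each region covered by peaks, per the file headers. Peak lists carry the authors' score. The sequential ChIP list gives pileup signal, −log10 p and q, and fold enrichment, per the file headers; only its positions were used.

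Entries of a symbol were summed. limma 3.58.1 (R 4.3.3; lmFit, eBayes with trend, two-sided, Benjamini-Hochberg) was fitted to log2(FPKM + 1), a pseudocount of 1, over 11728 genes with mean FPKM of at least 1, for 2 against 3 clones. Fold changes on this scale are understated for low genes. The limma script was tested on simulated data. Clones are separate lines, but nothing says how they were grown, so p-values measure the spread between these libraries. Fragments were estimated from the upper bound of each interval, taken as 2 SD of a Poisson count, and ChIP depth recovered from the levels was 6.62 to 24.1 M reads. Peaks counted where at least 1 base lay within 2 kb of either locus end. Coordinates of peaks are mm9, 1-based, and those of promoter sequences are GRCm38.p6 from RefSeq; no coordinate was converted. Strand of the RNA counting is not given, so antisense partners cannot be separated. The replicate numbers did not pair the clones.

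The genes and lists were chosen with earlier results of these data known, so no count over them is independent evidence. Named genes are the P-stalk, the 3 highest and 2 lowest of each subunit by mean FPKM, the 4 largest differences in each direction, genes with an MTA1 or RBBP4 peak, hosted snoRNAs, and the 2 most highly expressed genes of each list; any other is named as an example or after its value was seen. The values of 1 ribosomal protein gene and of 1 list gene are not reported here. Alternatives were other scalings, pseudocounts, filters and variance settings, leaving out each clone, a replicate block, and other distances, scores and overlaps for ChIP. Restriction to genes with steady intervals and the subtraction of length class medians were added after seeing the data.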

Additional observations from a re-analysis of the deposited data

How the results depend on the processing

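No ribosomal protein gene passed the limma test under any of the 14 alternatives run, and the smallest adjusted p ran from 0.0965 (Rpl36a, array weights) to 0.78 (Rps28, replicate block). Over all genes tested, 4 calls became 6 with a pseudocount of 0.1, with no filter or without trend, 12 with array weights, and 8 to 31 with 1 clone left out. The median log2 difference of the 75 genes, 0.30, became 0.45 with median scaling, 0.10 with quantile normalization and 0.071 with the length class median subtracted, and stayed above 0 in all alternatives (0.23 to 0.36 with 1 clone left out). The large minus small subunit difference of 0.11 became 0.0083 with quantile normalization and ran from 0.0202 to 0.16 with 1 clone left out. The cause was not tested. Control and knockdown clones of the same number did not deviate together (correlations -0.25 and -0.10). With the replicate block, which uses no information from knockdown clone 3, 0 genes were called in all, 64 of 75 were above 0, the median was 0.36 and the subunit difference 0.0202. The median over all genes tested was then -0.10, and their share above 0 is not given here.

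Of single genes, Rplp0 turned to 0.014 with median scaling and to 0.0096 with the replicate block, and its values without 1 clone lay between -0.21 and 0.0096 (without knockdown clone 3). Rplp1 turned to -0.10 with quantile normalization. With 1 clone left out, Rpl26 ran from -0.90 to 0.84 (without knockdown clone 1, and 0.45 without control clone 1), and Rps27 from -0.92 (without control clone 1) to 4.03. Rpl7 turned to 0.0245 with the replicate block and ran from -0.34 to 0.0245 (without knockdown clone 3) with 1 clone left out.

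For peaks, MTA1 in knockdown cells reached 2 genes at 5 kb and 0 at a score of at least 100, and at that score RBBP4 reached 0 in control and 1 in knockdown cells. The shares of other expressed genes at these settings are not given here, so these counts show no change relative to other genes. With the mean over regions in place of the highest, median levels were 2.14 for HA-H3.3 replicate 2, 1.17 for CHD4, 1.33 for HDAC1, 1.39 for HDAC2, 1.49 for RBBP4, 2.40 for H3K4me3 and 1.59 for H3K9ac. The sign of the difference from other expressed genes turned in that setting in 8 of 11 libraries, all but HA-H3.3 replicate 2, CHD4 and H3K4me3. At 1 kb and at 5 kb it turned in 1 of 11, HA-H3.3 replicate 1 (2.22 against 2.23, and 2.40 against 2.41). The cause was not tested.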

Other observations

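Npm1, the most highly expressed of the ribosome biogenesis genes, had 1167 and 791.4 FPKM in the controls and 1261, 1294 and 1168 in the knockdown clones. Nop56, a box C/D snoRNP protein, had 223.5 and 118.0 in the controls and 61.7, 147.4 and 117.0 in the knockdown clones. Control clone 1 was above control clone 2 for Fbl, Nop56, Ncl and Npm1 alike. The median log2 difference from the control mean was 0.29 and -0.29 in control clones 1 and 2 over the 40 biogenesis genes, against 0.02 and -0.02 over the 75 ribosomal protein genes. In each pair the 2 values mirror each other by construction.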
